A study of Mus musculus with 8 samples.

Results

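The genes described here are p53 itself and 9 genes that regulate it or act downstream of it in cell-cycle arrest and feedback: Trp53, Mdm2, Mdm4, Cdkn1a, Ccng1, Zmat3, Gtse1, Phlda3, Rps27l and Trp53inp1. They are 10 of the 25700 genes counted in each library and were picked by name, with their difference between genotypes already known. Their folds between genotypes are therefore a description and carry no test. The study measured messenger RNA in brain endothelial cells sorted from C57BL/6 mouse pups at postnatal day 6. Of the 8 pups, 4 carried an endothelial deletion of GLUT1, the glucose transporter of the blood-brain barrier (genotype GLUT1EC-/-, here KO), and 4 were wild-type littermates by the submitters' account (WT). Each library came from 1 pup. The sources used here name neither the Cre driver nor its timing. By their titles all 4 KO pups and WT pup 5 shared a cage and WT pups 1, 2 and 3 another, whereas the file names put WT pup 3 in the KO cage in place of WT pup 5, so cage and genotype can hardly be told apart.

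p53 is a transcription factor that is held at a low level by MDM2, a ubiquitin ligase that marks it for degradation, and by the related protein MDM4, which masks its activation domain. When p53 is released, mainly by changes to the protein rather than to its messenger RNA, it activates genes that stop the cell cycle, foremost Cdkn1a, and genes such as Mdm2 and Ccng1 that restrain p53 in turn. It binds DNA as a tetramer, at sites made of a pair of copies of a 10-base element.

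Libraries held 20.9 to 41.8 M counts, except WT pup 2 with 114 M. Detected genes numbered 13624 in KO pup 1, which correlated with the other libraries at r of 0.913 to 0.932 across genes, and 15756 to 17082 elsewhere. Slc2a1, which encodes GLUT1, measured 1386 to 1602 CPM (counts per 1 M counts of the library, scaled between libraries) in KO and 2238 to 3726 CPM in WT, with no overlap (exact two-sided permutation p = 0.0286, the smallest that 4 against 4 pups allow). Its counts can include exons outside the deleted part. The 12 pan-endothelial markers were all detected, with summed levels of 15188 to 17073 CPM in KO and 15993 to 17072 CPM in WT. Of the 12, 2 were higher and 1 lower in KO at an unadjusted p under 0.05. Without overlap between genotypes, 1 was higher and 2 were lower, where 7.19% of all genes did not overlap in either direction. Markers of microglia, mural cells, fibroblasts, astrocytes, neurons, oligodendrocytes and red cells overlapped between genotypes in their summed level, but single markers moved. At an unadjusted p under 0.05, 4 of 6 astrocyte markers were higher in KO and 1 was lower (median log2 fold change 1.06), and 4 of 12 microglia and macrophage markers were higher and 0 lower (median 0.24). As a background in either direction, 1578 of 14154 tested genes had such a p in edgeR with DESeq2's size factors. The summed level of the 5 choroid plexus markers did not overlap, with 20.5 to 293 CPM in KO and 368 to 1888 CPM in WT. None of these 5 markers was at 0 in all libraries. Singly, 4 were lower in KO at an unadjusted p under 0.05 and 0 higher (median log2 fold change -1.75). Of the 5, 2 did not overlap between genotypes, both lower in KO, where 7.19% of all genes did not overlap in either direction. The part of these cells in the results was not tested. In bulk samples of this kind, fewer cells of a type and less RNA per cell cannot be told apart.

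Promoter windows from RefSeq (GRCm38.p6, from 250 bases before to 50 bases after a transcription start) were found for 8 of the 10 genes, in 12 windows. Zmat3 and Trp53inp1 had none. The windows were searched for the p53 consensus decamer, which reads the same on both strands, and for 2 decamers side by side with at most 1 base off the consensus and the central C and G of each decamer kept. Such a paired site is rare, occurring in 22 of 32851 windows (0.067%), and 4 of the 12 windows of these genes held it. They belong to Ccng1, Cdkn1a, Rps27l and Gtse1. These sequences are shown as a description, since the genes were picked for their ties to p53 and such sites may follow from that choice. Each is printed 5′ to 3′ on the strand of its gene, with 5 bases on either side and the paired site in capitals.
Ccng1: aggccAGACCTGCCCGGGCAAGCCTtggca
Cdkn1a: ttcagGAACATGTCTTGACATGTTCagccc
Rps27l: atggcGGGCTTGTTGAGACTTGTCCgggcg
Gtse1: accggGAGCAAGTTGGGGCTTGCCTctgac
The base off the consensus was at position 5 of the 20 in Ccng1, position 11 in Cdkn1a, and position 10 in both Rps27l and Gtse1, counted from 1 at the 5′ end of the capitals. In GRCm38 coordinates the stretch shown for Ccng1 is chr11:40755457-40755486 on the minus strand, and its site lay from base -195 to base -176 of the start. The stretch for Cdkn1a is chr17:29090923-29090952 on the plus strand, with the site from base -51 to base -32 of the window's start. Both lie upstream of the gene in GENCODE M21. The stretch for Rps27l, chr9:66946291-66946320 on the plus strand, lies in an intron, with the site from base -117 to base -98 of the window's start at 66946413. That for Gtse1, chr15:85859940-85859969 on the plus strand, lies in an annotated exon, and the site spans the window's start, at 85859946, from base -1 to base 19. Cdkn1a, Rps27l and Gtse1 each had a further window, with its start at 29093769, 66946086 and 85859707, that held no decamer. The positions given are thus relative to only 1 of the starts of these genes.

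The longer stretch upstream of Cdkn1a holds a further decamer. It is shown with the upstream sequence of Ccng1 and, for contrast, with that of Phlda3, the gene with the largest fold, whose window held no decamer. Capitals mark every exact decamer and paired site, and bases inside annotated exons were left off.
Cdkn1a, chr17:29090729-29090975: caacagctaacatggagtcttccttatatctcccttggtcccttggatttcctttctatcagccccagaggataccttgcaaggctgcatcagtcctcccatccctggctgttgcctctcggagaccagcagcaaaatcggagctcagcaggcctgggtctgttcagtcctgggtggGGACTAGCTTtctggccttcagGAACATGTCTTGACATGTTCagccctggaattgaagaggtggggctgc
Ccng1, chr11:40755312-40755536: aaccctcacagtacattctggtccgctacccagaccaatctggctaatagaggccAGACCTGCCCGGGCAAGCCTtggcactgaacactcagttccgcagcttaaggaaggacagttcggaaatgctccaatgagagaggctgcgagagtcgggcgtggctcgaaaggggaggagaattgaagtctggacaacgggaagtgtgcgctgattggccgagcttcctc
Phlda3, chr1:135765835-135766084: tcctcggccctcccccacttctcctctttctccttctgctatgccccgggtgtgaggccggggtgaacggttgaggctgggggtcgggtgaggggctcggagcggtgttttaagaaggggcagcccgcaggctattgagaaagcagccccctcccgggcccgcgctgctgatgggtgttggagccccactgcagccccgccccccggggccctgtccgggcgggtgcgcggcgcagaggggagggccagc
At least 1 exact decamer was present in 6 of the 8 genes with windows (Ccng1, Cdkn1a, Mdm2, Trp53, Gtse1 and Rps27l), against 9.554% of all 27025 genes with windows. The decamer upstream of Mdm2 read GAACTTGCCT and that upstream of Trp53 read GGACTTGCCC. A match of letters is a description of these windows only, and p53 sites in introns or farther upstream would not appear in them.

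The paired site also marks genes without use of their expression. Of the 22 genes that carry it, 18 are not among the 10. Of those 18, 7 were among the genes counted, and 3 of the 7 passed the filter on low counts. Calhm2, Mthfd1 and Sptbn4 had log2 fold changes between KO and WT of 0.08 (SE 0.43), -0.01 (SE 0.16) and 0.23 (SE 0.98). None of the 3 passed edgeR's quasi-likelihood test (adjusted p of 0.970, 0.991 and 0.963), and Sptbn4 was near the lowest level counted, at 0.295 ± 0.238 CPM in WT (SD, n = 4).

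All 10 genes passed the filter on low counts. Over all 14154 genes tested with edgeR, 0.389% were called at an adjusted p of 0.05 in either direction and 0.276% were called higher in KO. Among the 10, 6 were called, all higher in KO: Phlda3, Gtse1, Ccng1, Zmat3, Cdkn1a and Rps27l. With cage as a term, under either reading, only Ccng1, Zmat3 and Phlda3 of these 6 were called, and Gtse1, Cdkn1a and Rps27l were not. Mdm2, Trp53inp1, Trp53 and Mdm4 were not called. The groups did not overlap for 7 of the 10, the 6 called genes and Mdm2, where 3.77% of all genes were higher in KO without overlap and 7.19% did not overlap in either direction. The median log2 fold change was 0.71 for the 10 and 0.0017 for all tested genes. These shares follow from how the genes were picked and nothing is read from them. The plot of levels by pup gives every value.

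**Figure D1:**
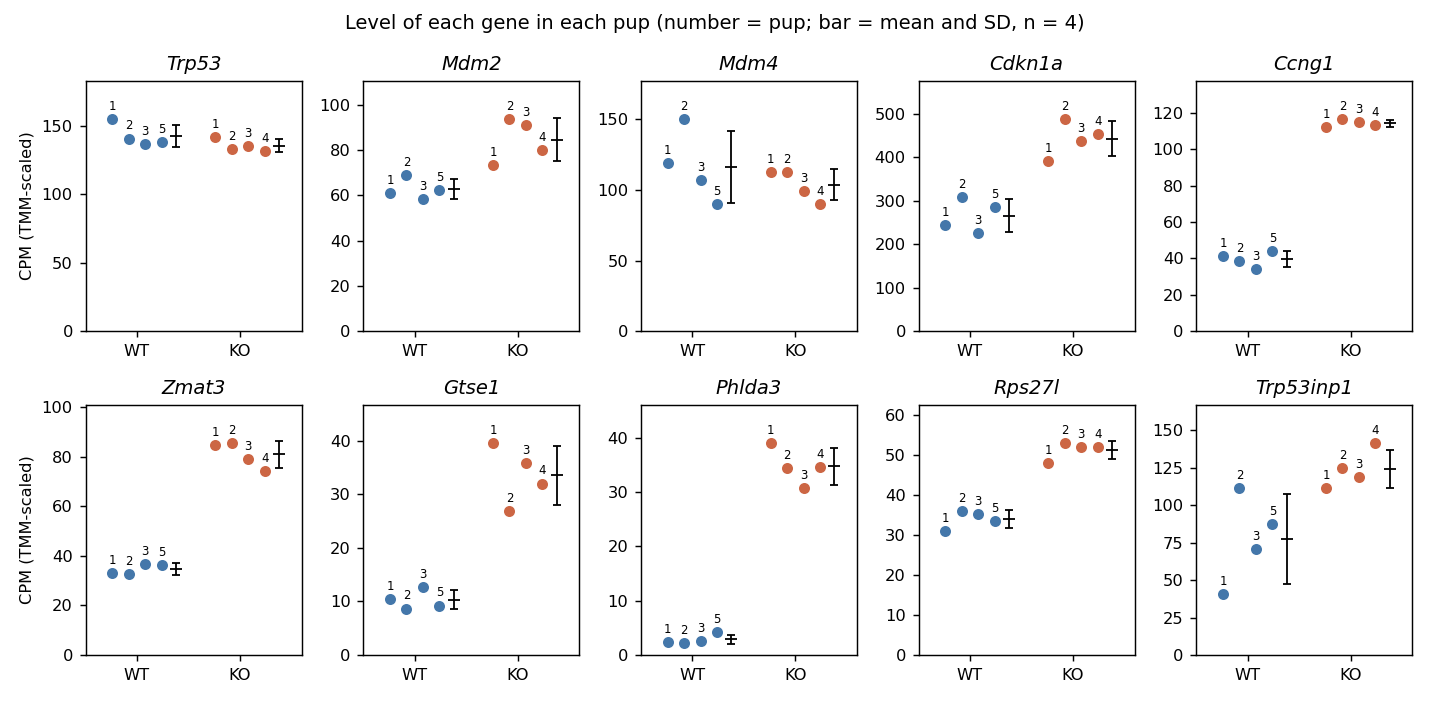
TMM-scaled CPM (y axis, from 0) of each of the 10 genes in the 4 WT (blue) and 4 KO (orange) pups. Points are single pups labelled by pup number, and black bars give mean and SD. Ccng1, Zmat3, Gtse1 and Phlda3 stand well apart between genotypes, whereas Trp53 and Mdm4 overlap and Trp53inp1 spreads from 40.4 to 112 CPM among WT pups.

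Trp53, which encodes p53 (ENSMUSG00000059552, chr11:69580359-69591873), did not separate the genotypes. KO pups 1 to 4 measured 142, 133, 135 and 132 CPM, and WT pups 1, 2, 3 and 5 measured 155, 141, 137 and 139 CPM. A KO pup lay above a WT pup in 3 of 16 pairs, and all 8 values fell within a narrow band. KO and WT differed by a log2 fold change of -0.07 (SE 0.07). Per kilobase of annotated exon, so that genes can be compared, the Trp53 level in WT was 35.3 ± 2.04 CPM per kb (SD, n = 4), above that of 90.5% of tested genes or equal to it.

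The levels of the 2 main inhibitors of p53 are given next, and the difference between them was not tested. Mdm2 (chr10:117688875-117710758), itself a p53 target, measured 73.3, 93.6, 91.1 and 80.2 CPM in KO pups 1 to 4 and 61.1, 68.9, 58.5 and 62.4 CPM in WT pups 1, 2, 3 and 5. Every KO pup was above every WT pup, although KO pup 1 exceeded WT pup 2 by only 1.06-fold. The log2 fold change was 0.43 (SE 0.10), a 1.35-fold difference, and edgeR did not call the gene with all libraries. It was called by edgeR without KO pup 1 (log2 fold change 0.49), without KO pup 1 and WT pup 2 together (0.54), and by DESeq2 with all libraries (0.43). Those settings called 0.582%, 0.531% and 2.31% of all genes, against 0.389% for edgeR with all libraries. Mdm4 (chr1:132959484-133030561), the relative of MDM2 without strong ligase activity of its own, ran from 90.3 to 113 CPM in KO and from 89.6 to 150 CPM in WT. Its groups overlapped almost fully and its log2 fold change was -0.17 (SE 0.14), which turned to 0.21 (SE 0.19) with the cages of the titles as a term. WT pup 2, the most deeply sequenced library, had the highest WT level of both genes.

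Cdkn1a (ENSMUSG00000023067, chr17:29090976-29100727) encodes p21, the inhibitor of cyclin-dependent kinases through which p53 arrests cells in G1. It measured 392, 488, 437 and 454 CPM in KO pups 1 to 4 and 245, 308, 225 and 285 CPM in WT pups 1, 2, 3 and 5. The lowest KO pup was 1.27-fold above the highest WT pup, and the fitted log2 fold change was 0.74 (SE 0.11). Cdkn1a was already the most abundant of the 10 genes per length, at 74.8 ± 10.5 CPM per kb in WT and 125 ± 11.2 in KO (SD over 4 pups). A short exon overlap of 273 bases with AC167363.2, an unverified transcript on the opposite strand, leaves those reads undivided, since the sources do not state whether counting used strand. Its modest fold was nevertheless the largest gain in level: the mean was 177 CPM higher in KO, 40.3% of the summed gain of the 8 genes with a higher mean.

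Ccng1 (ENSMUSG00000020326, chr11:40748552-40755311) encodes cyclin G1, a p53 target that helps MDM2 to act and so belongs to the feedback arm. KO pups 1 to 4 measured 112, 117, 115 and 114 CPM, and WT pups 1, 2, 3 and 5 measured 41.4, 38.3, 33.97 and 44.3 CPM. The KO pups were almost level with each other, with a coefficient of variation of 1.72%, close to the 1.82% that counting error alone gives at these counts, against 11.2% among WT pups. A log2 fold change of 1.53 was fitted (SE 0.09), and the lowest KO pup was 2.53-fold above the highest WT pup. Among all tested genes, the spread of Ccng1 in KO on the log2 CPM scale (SD 0.02) was at the 0.615th percentile.

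Zmat3 (chr3:32334792-32366014), an RNA-binding zinc finger protein induced by p53, was the second gene with a tight separation. KO pups 1 to 4 measured 85.0, 85.7, 79.2 and 74.1 CPM, and WT pups 1, 2, 3 and 5 measured 33.0, 32.5, 36.9 and 36.4 CPM. The 2 groups were separated by 1.22 on the log2 scale (SE 0.09). In both groups the coefficient of variation was under 7%, at 6.69% in KO and 6.51% in WT. Because Zmat3 has 11435 bases of annotated exon, its level per length was low, at 3.03 ± 0.197 CPM per kb in WT and 7.08 ± 0.474 CPM per kb in KO.

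Phlda3 (ENSMUSG00000041801, chr1:135766119-135769136), a small pleckstrin-homology protein that competes with Akt for membrane lipids, had the largest fold. KO pups 1 to 4 measured 39.0, 34.5, 30.7 and 34.7 CPM, and WT pups 1, 2, 3 and 5 measured 2.46, 2.24, 2.55 and 4.14 CPM. The WT values rest on 94 to 250 reads each, far above the limit of 3 counts. The log2 fold change was 3.63 (SE 0.20), and even the lowest KO pup was 7.42-fold above the highest WT pup. Per length Phlda3 went from the 29.0th percentile of tested genes in WT to the 84.3rd in KO, from 1.83 ± 0.558 to 22.3 ± 2.19 CPM per kb. WT pup 5, the KO pups' cage mate by title, was the highest WT pup, and the KO mean was 8.39-fold above that pup.

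Gtse1 (ENSMUSG00000022385, chr15:85859745-85876573) encodes a microtubule-associated protein of S and G2 phase that binds p53 and carries it out of the nucleus. KO pups 1 to 4 measured 39.6, 26.8, 35.8 and 32.0 CPM, and WT pups 1, 2, 3 and 5 measured 10.5, 8.66, 12.7 and 9.22 CPM. The groups were well separated but KO pups varied, with pup 2 lowest. Fitted over all pups, the log2 fold change was 1.71 (SE 0.16). Since Gtse1 is normally a cell-cycle gene, its level was set against the summed level of 26 S, G2 and M phase genes. That sum overlapped between genotypes, at 948 to 1373 CPM in KO and 948 to 1340 CPM in WT, and KO pup 2 had the lowest KO value of both. Per 1000 CPM of that sum, Gtse1 stood at 27.8 ± 2.74 CPM in KO pups and 8.61 ± 1.25 CPM in WT pups (SD over 4 pups). This ratio restates the fold of Gtse1, since the sums overlapped, and the part of cycling cells in it was not tested.

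Rps27l (chr9:66946086-66949516), a ribosomal protein paralogue of RPS27 that p53 induces, measured 48.1, 53.05, 51.9 and 51.9 CPM in KO pups 1 to 4 and 31.0, 36.03, 35.2 and 33.6 CPM in WT pups 1, 2, 3 and 5. The groups were apart by 1.33-fold at their nearest values. Their log2 fold change was 0.59 (SE 0.08). Reads shared with its paralogue could be split by the counting. Trp53inp1 (chr4:11156431-11174379), a stress-induced nuclear protein that promotes p53 activity, measured 112, 125, 119 and 142 CPM in KO pups 1 to 4 and 40.4, 112, 70.5 and 87.7 CPM in WT pups 1, 2, 3 and 5. KO pup 1 and WT pup 2 were level, so 15 of 16 pairs had the KO pup higher, and the gene was not called. Its log2 fold change was 0.68 (SE 0.24). Its WT pups spread 2.76-fold from lowest to highest, the widest WT range of the 10 genes, while the KO pups spread 1.27-fold.

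No pup was highest or lowest throughout. Of the 10 genes, KO pup 2 was the highest KO pup for 5 and the lowest for 1, whereas KO pup 1 was highest for 4 and lowest for 5. Among WT pups, pup 2 was highest for 5 genes and lowest for 3. Summed over the 10 genes, KO pups held 1206 ± 47.0 CPM and WT pups 787 ± 79.7 CPM (SD over 4 pups), and Cdkn1a alone made up 36.7 ± 1.98% and 33.7 ± 1.97% of it.

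Within the 10 genes, larger folds went with lower baselines. Across the 10, the log2 fold change correlated with the log2 of the WT mean CPM at r = -0.88 (Pearson, n = 10 genes), and at -0.71 without Phlda3. On levels per kb these values were -0.65 and -0.45. Over all 14154 tested genes the correlation was -0.12. The points share their WT libraries on both axes, so a WT level that is low by error raises the fold, and the relation is given as a description.

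**Figure D2:**
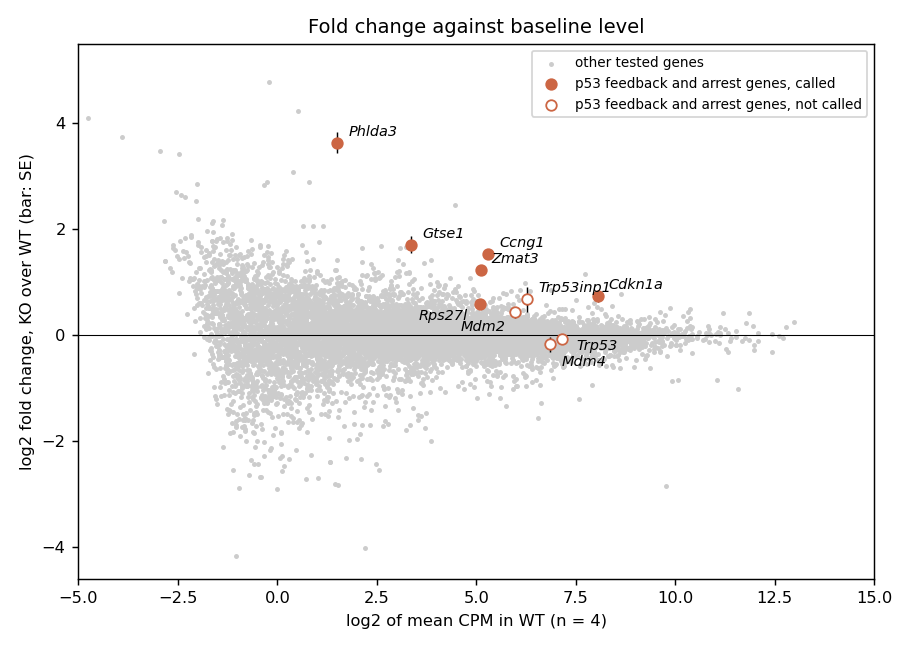
Log2 fold change of KO over WT (y axis, bars are SE) against the log2 of the WT mean CPM (x axis, n = 4) for all tested genes (grey) and the 10 genes named (orange, filled where called). Phlda3, at a WT mean of 2.85 CPM, has the largest fold. Cdkn1a, at 266 CPM, has a log2 fold change of 0.74, near the median of 0.71 for the 10.

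The genes next to the 10 on their chromosomes were compared to see whether the differences extended along the chromosome. The 2 nearest tested genes on each side gave 40 neighbours, at a median distance of 38.9 kb, or 63.9 kb for the 24 neighbours of the called genes. Some lay far off, such as Pttg1 at 2665 kb from Ccng1 and Slc7a14 at 1024 kb from Zmat3. edgeR called 0 of the 40, where 0.389% of all genes were called, and 3 (Pttg1 higher, Pik3c2b and Ints8 lower in KO) did not overlap between genotypes, as did 7.19% of all genes. Counts this small in 40 genes do not set the neighbours apart from other genes. Their median log2 fold change was 0.05, with a range of -1.15 to 1.05. At Phlda3, for example, Csrp1 at 13.9 kb measured -0.09 (SE 0.09), and at Ccng1, Nudcd2 at 8.51 kb measured 0.23 (SE 0.13). Wrap53, which starts 0.1 kb from Trp53, measured -0.22 (SE 0.30).

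Other genes of the pathway were compared by list. Genes that act upstream of p53 held no call: of 18 tested genes for p53 relatives, damage kinases, cofactors and ribosomal proteins, edgeR called 0, with 1 at an unadjusted p under 0.05, and DESeq2 and limma-voom called 0 each. With 0.389% of all genes called, 0 of 18 is what a list of this size gives at the background share. For this and the lists below, the background at an unadjusted p under 0.05 was 1578 of 14154 genes, in edgeR with DESeq2's size factors. The median log2 fold change was -0.01. Atr, a kinase activated by replication stress, measured 0.34 (SE 0.14), and the acetyltransferases Crebbp and Kat5 measured -0.17 (SE 0.09) and 0.14 (SE 0.08). Kat5 shares exon bases with Rnaseh2c on the opposite strand.

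Among 17 other feedback and arrest targets of p53, 1 rose and 0 fell, with 2 higher and 0 lower at an unadjusted p under 0.05. DESeq2, which called 2.31% of all genes, called 1 of them. Ei24, a membrane protein of the endoplasmic reticulum, rose from 108 ± 2.61 to 160 ± 15.5 CPM (edgeR adjusted p = 0.00762), and 324 of its exon bases are shared with an antisense gene, Gm26787. The list's median was 0.15. Well known arrest genes in it did not pass: Btg2 measured -0.10 (SE 0.32), Plk2 -0.11 (SE 0.26), Gadd45a 0.34 (SE 0.18) and Ppm1d, the phosphatase that shuts p53 off, 0.16 (SE 0.11).

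Of 15 tested death effectors, 4 rose (Eda2r, Aen, Bax and Pmaip1) and 0 fell, with a median of 0.35. Only 2 were called without KO pup 2, KO pup 3, WT pup 1, WT pup 3 or WT pup 5, each left out alone. DESeq2 called 6 of the 15, where it called 2.31% of all genes and edgeR 0.389%. Eda2r, a TNF-family receptor for ectodysplasin A2, went from 0.868 ± 0.546 to 25.7 ± 2.57 CPM (edgeR adjusted p = 0.000108). Aen, an apoptosis-enhancing nuclease, measured 32.1 ± 5.41 and 16.7 ± 3.29 CPM (adjusted p = 0.0427), and Pmaip1, which encodes NOXA, 39.8 ± 2.73 and 25.3 ± 2.75 CPM (adjusted p = 0.0242). Bax measured 77.6 ± 4.44 and 47.5 ± 3.59 CPM (adjusted p = 0.00324), with 192 bases of exon shared with Gm45808 on the same strand. Bbc3, which encodes PUMA, measured 0.10 (SE 0.20) and did not pass.

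Of 25 metabolic, antioxidant and repair targets, 6 rose (Ephx1, Dcxr, Dglucy, Slc19a2, Sesn2 and Ercc5) and 0 fell, with a median of 0.16. DESeq2 called 10 of the 25, where it called 2.31% of all genes and edgeR 0.389%. Ercc5, a nuclease of nucleotide excision repair, went from 42.0 ± 2.38 to 65.4 ± 5.09 CPM (edgeR adjusted p = 0.00637). Sesn2, an inhibitor of mTORC1 signalling, went from 18.2 ± 2.69 to 33.8 ± 5.79 CPM (adjusted p = 0.0318), while its relative Sesn1 measured -0.19 (SE 0.12) without passing. Ephx1, Dcxr, Dglucy and Slc19a2 were placed in this list, and Eda2r in that of death effectors, with their rise already known, so the counts of both lists are not independent evidence of a direction. With cage as a term, 1 (titles) or 2 (file names) of the death effectors and 3 or 2 of the metabolic and repair genes were called, and Ei24 was not. Of Eda2r, Aen, Bax and Pmaip1, only Eda2r was called with either cage term. The other call with the file names was a death effector outside these. Aen, Pmaip1 and Sesn2 were called in 7, 9 and 8 of 18 other settings. Against the 0.276% of all genes called higher, these 4 p53 target groups differ in size and choice, and no test between them was made.

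**Figure D3:**
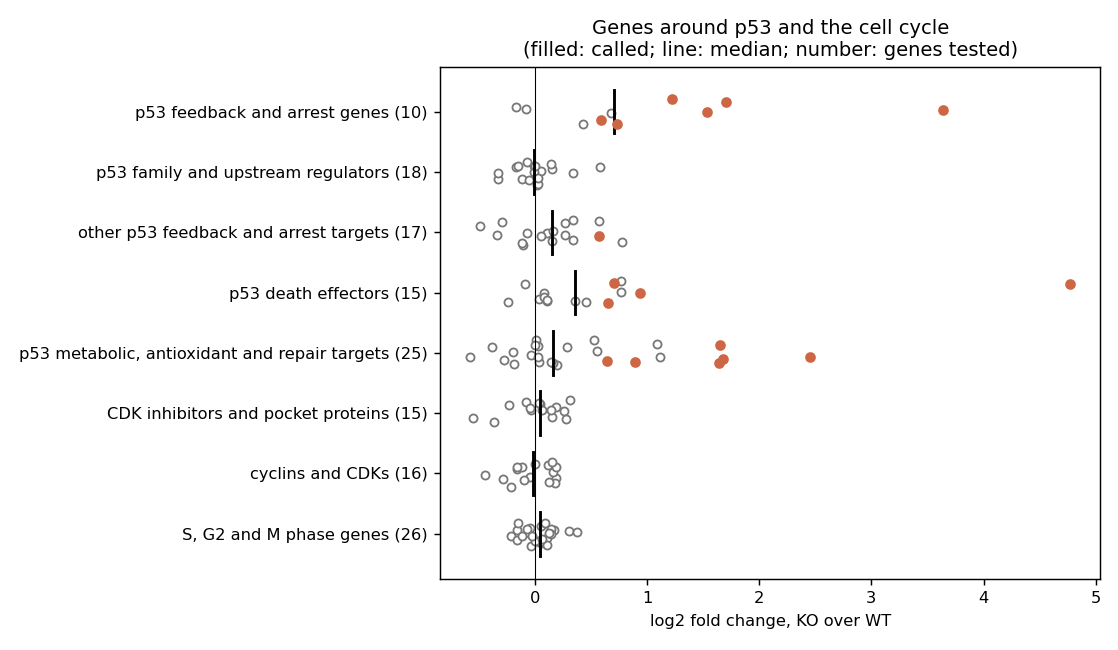
Log2 fold change of KO over WT (x axis) for each tested gene of the 10 and of 7 further lists (rows, number of genes tested in brackets). Filled points were called by edgeR, open points were not, and black lines are medians, which run from -0.02 for cyclins and their kinases to 0.71 for the 10 genes.

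The lists of the cell-cycle machinery held no call, and at 0.389% of all genes called, lists of 15 to 26 genes would hold none at the background share. Of 16 cyclins, kinases and their regulators, edgeR called 0, with 0 higher and 1 lower at an unadjusted p under 0.05. Cdk6 went from 33.4 ± 2.85 CPM in WT to 27.4 ± 1.51 CPM in KO without passing, a log2 fold change of -0.28 (SE 0.10), without overlap between the groups. Cdc25a measured -0.22 (SE 0.10) and Ccnd3 -0.16 (SE 0.08). Of 26 S, G2 and M phase genes, 0 were called and 0 had an unadjusted p under 0.05, and the median was 0.05. Aurka, E2f1 and Bub1b measured 0.31 (SE 0.17), 0.38 (SE 0.24) and -0.21 (SE 0.14). The other inhibitors of cyclin-dependent kinases and the pocket proteins, 15 tested genes, had 0 calls as well, with 2 higher and 2 lower at an unadjusted p under 0.05. In that list Cdkn1c, which encodes p57, measured -0.36 (SE 0.16), the pocket protein gene Rbl2 0.28 (SE 0.09) and its partner E2f4 -0.23 (SE 0.08). DESeq2 and limma-voom called 0 genes in each of these 3 lists. Shifts of the size named here were not called at the spread of these libraries, and smaller ones could be missed as well.

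Genes whose level over the 8 libraries was most like the mean of the 10 were sought among 9862 genes whose log2 CPM averaged 3 or more. The 5 closest were Ephx1 (r = 0.996), Pros1 (r = 0.993), Mmrn2 (r = 0.988), Nav2 (r = 0.986) and Dglucy (r = 0.982), each over 8 libraries that fall into 2 genotypes, so that r mostly measures how clean the separation was. Of the genes searched, 49 had an r of at least 0.9 and 52 an r of at most -0.9. Pros1, which encodes the anticoagulant protein S, went from 141 ± 6.15 CPM in WT to 199 ± 3.01 CPM in KO, and Mmrn2, an endothelial matrix glycoprotein, from 338 ± 22.1 to 495 ± 13.4 CPM (SD over 4 pups). Nav2, a neuron navigator protein, went from 12.8 ± 1.99 to 32.8 ± 3.84 CPM.

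How far the calls rest on the cages and on single pups differed between the genes. The share of all genes called was 0.403% with DESeq2's size factors, 0.396% with upper quartile scaling, 0.452% without a filter, 0.451% with a filter on CPM, 0.509% with limma-voom and 2.31% with DESeq2. Leaving out KO pups 1 to 4 gave 0.582%, 0.247%, 0.22% and 0.284%, and leaving out WT pups 1, 2, 3 and 5 gave 0.268%, 0.303%, 0.403% and 0.316%. It was 0.531% without KO pup 1 and WT pup 2, and 0.0777% with pup number as a block, where Ccng1, Zmat3, Gtse1 and Phlda3 were called. With cage as a term, from the titles or from the file names, Ccng1, Zmat3 and Phlda3 stayed called and Gtse1, Cdkn1a and Rps27l did not, while 0.113% and 0.0707% of all genes were called. Each of these fits compares the KO pups with a single WT cage mate. Against WT pup 5 the KO mean was 2.58-fold higher for Ccng1, 2.22-fold for Zmat3, 3.64-fold for Gtse1, 1.55-fold for Cdkn1a and 1.53-fold for Rps27l. Against WT pup 3 it was 3.37-fold, 2.20-fold, 2.64-fold, 1.97-fold and 1.45-fold. Since the KO pups lay above every WT pup for these genes, the direction could not differ. Without KO pup 2, Cdkn1a and Rps27l were not called, without KO pup 3 Rps27l was not, and without WT pup 1 Cdkn1a was not.

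**Figure D4:**
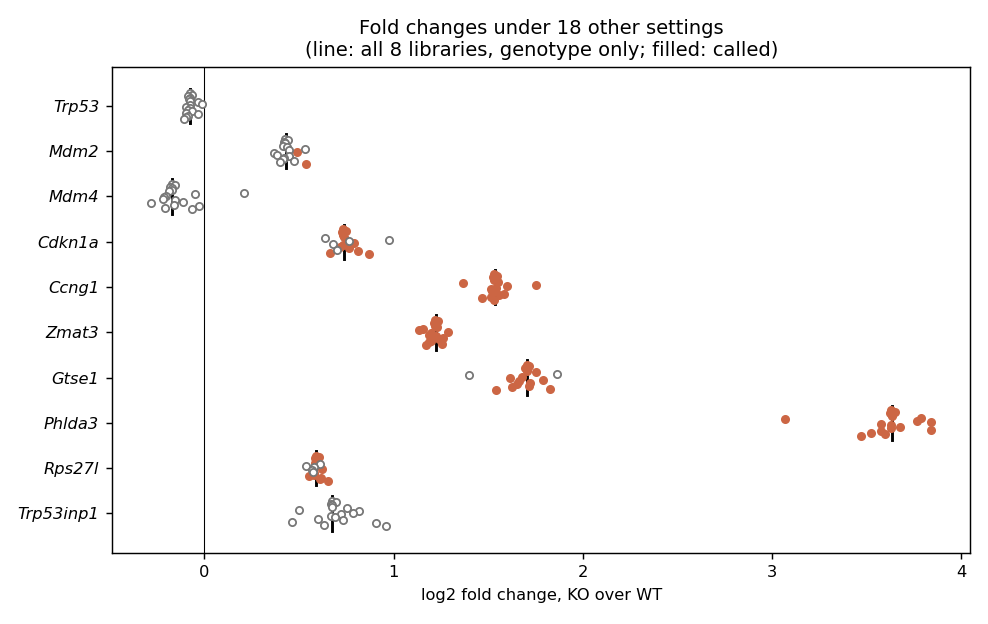
Log2 fold change of KO over WT (x axis) of each of the 10 genes under 18 other settings (points, filled where called), with the value from all 8 libraries and genotype alone as a black line. Ccng1, Zmat3 and Phlda3 are called under all 18, Trp53, Mdm4 and Trp53inp1 under none.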

How the data were processed

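Messenger RNA of 4 KO and 4 WT pups was sequenced as stranded poly(A) libraries, single-end, per the labels' protocols. The authors deposited raw counts per gene, and the submitters' processing notes name STAR, featureCounts and GRCm38. The sources used here give no version, annotation release or strand setting. Symbols, exon lengths and coordinates came from GENCODE M21 (GRCm38), which named 25664 of 25700 identifiers. The other 36 took 0.0223% of counts and stayed in the tests. Genotype came from the titles.

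Counts were filtered with filterByExpr (minimum count 10, minimum total 15), scaled by TMM and tested with edgeR 4.0.16 (R 4.3.3, quasi-likelihood F test, genotype only). P-values were adjusted by Benjamini-Hochberg over 14154 genes at 0.05. CPM are TMM-scaled and log2 CPM used a prior count of 2. SE is the absolute log2 fold change over the square root of F. A limit of 3 counts equals 0.144 CPM in KO pup 1 and 0.0269 CPM in WT pup 2, for counting error only. No pair of libraries was alike (chi-square per gene of at least 13.9). P-values set the difference between genotypes against the spread between pups. All KO pups shared the same cage under either reading, so no spread between KO cages enters them.

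The 10 genes, the lists and the alternatives were chosen with earlier results of these data known, and the promoter search after the data were seen. Named genes were the 10, Slc2a1, from each list the called genes or else the 3 of smallest p, and the 5 most alike over libraries. Others named (Btg2, Plk2, Gadd45a, Ppm1d, Bbc3, Sesn1, Calhm2, Mthfd1, Sptbn4, the neighbours and the genes with a decamer) were chosen after their values were seen. Ptprv had no row, and Trp63 and Cdkn2a failed the filter. The fit was tested on simulated counts. Alternatives used DESeq2 1.42.0, limma 3.58.1, other scalings and filters, cage or pup number as terms, and each pup left out.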

Additional observations from a re-analysis of the deposited data

Results flagged for a closer look

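Phlda3 in WT pup 5, at 4.14 CPM, stood apart from the other 3 WT pups, which lay between 2.24 and 2.55 CPM. The gap was 0.838 of the whole WT range, above Dixon's 95% critical value for 4 samples. Chance flags about 1 in 20 groups, and 22 groups (11 genes in 2 genotypes) were looked at. Without WT pup 5 the log2 fold change of Phlda3 was 3.84, against 3.63 with all pups.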

How the results depend on the processing

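Of the 10 genes, 4 to 7 were called when single pups were left out, 3 with cage as a term by the titles and 3 by the file names, where 6 were called with all pups. Trp53, Mdm4 and Trp53inp1 were called under none of the 18 alternatives. Over all genes 55 were called, 39 higher and 16 lower. Leaving out single pups gave 32 to 85 calls, 25 to 60 higher and 6 to 27 lower, with the most calls without KO pup 1 and the fewest without KO pup 3. With KO pup 1 and WT pup 2 both left out, 26 were lower. Without a filter 84 were called, 38 lower, and DESeq2 called 327, of them 147 higher and 180 lower. The cage term from the titles left 16 calls, 10 higher and 6 lower, and that from the file names 10 calls, 10 higher and 0 lower, with 758 genes at an unadjusted p under 0.05 in edgeR. Slc2a1 then measured -0.89 (adjusted p = 0.331, the range over its alternatives being 1.09e-11 to 0.331). The log2 fold change of Mdm4 turned to 0.21 and that of Bub1b to 0.11 with the cages of the titles, and that of Crebbp to 0.024 and of Cdkn1c to 0.059 with those of the file names. The cause was not tested.

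With pup number as a replicate block, 11 genes were called, 11 higher and 0 lower (956 at an unadjusted p under 0.05), 4 of the 10 genes among them, and Slc2a1 measured -0.91 (adjusted p = 0.0931). The numbers count pups within a cage and do not pair them: deviations of same-numbered KO and WT pups correlated at -0.03, 0.03 and -0.07, and no KO pup correlated best with its own number.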

Other observations

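The p53 decamer was also counted in the windows of the other called genes. Of the 39 genes called higher in KO, 31 had a promoter window and 12 held at least 1 exact decamer (38.7%), against 907 of 10784 tested genes with a window (8.41%). Leaving out the 10 genes described above, 8 of 26 held one (30.8%): Aen, Bax, Ddit4l, Ei24, Esr1, Exoc4, Inka2 and Slc2a9. Of these, Aen, Bax and Ei24 are in the lists of p53 targets above, so this share is not independent of known ties to p53. Of the 14 genes called lower with a window, 0 held one. The search was made after the calls were known, and the shares are a description of these windows.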
